A study of Homo sapiens with 24 samples.

Results

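The untreated oxaliplatin-resistant line HCT116 oxpl-R was compared with its parental line HCT116, 3 samples against 3, which are 6 of the 24 samples of the series and were chosen by the cell line and treatment that their labels give. HCT116 is a human colorectal carcinoma line of epithelial cells. HCT116 oxpl-R was derived from it by repeated pulses of oxaliplatin, a platinum drug that crosslinks DNA. Both lines have the genotype TetOn-E1A, in which doxycycline switches on the adenoviral gene E1A, and the 6 samples received neither doxycycline nor oxaliplatin. The other 18 samples are the same lines given oxaliplatin (25 µM, 24 h), doxycycline (0.5 µg/mL) or both. HCT116 oxpl-R is a single derived line, described by the study as hypotetraploid, so that resistance cannot be told apart from the other history of that line. The labels call the samples biological replicates and name no separate derivations, and p-values therefore measure the spread between these samples.

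Estimated counts summed to 24838095 to 30838378 per sample. Pearson coefficients of log2(CPM + 1) were 0.9977 to 0.9988 within HCT116, 0.9933 to 0.9972 within HCT116 oxpl-R and 0.9852 to 0.9879 between the lines, and replicate 3 of HCT116 oxpl-R was the sample least like its group. Epithelial markers summed to 192026 to 203604 counts in HCT116 and 206672 to 222865 in HCT116 oxpl-R, with 9 of 10 markers at 10 or more counts in a sample. KRT8, KRT18 and KRT19 made up nearly all of these sums. Before scaling for depth, EPCAM, CDH1, ESRP1 and GRHL2 had fewer counts in every HCT116 oxpl-R sample, and CDX2 had more. GRHL2 was at 1455, 1515 and 1343 counts in HCT116 and 870, 1006 and 675 in HCT116 oxpl-R. The intestinal markers CDX1 and CDH17 were nearly absent, at 0 to 10 counts. Markers of other cell types were low, with sums of 433 to 903 for 7 fibroblast genes, 28 to 155 for 5 immune genes and 2 to 17 for 4 endothelial genes.

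Oxaliplatin adducts stop DNA replication and transcription, and cells answer through p53, which switches on genes of cell cycle arrest and cell death. Uptake, export and repair of platinum lesions are further steps at which a cell line can differ. Colon epithelial cells are also marked by junction proteins, keratins and HOX genes, which record cell type and position along the gut. Members of 24 gene lists for such programs were followed together with the genes that differed most.

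Of 19684 genes counted at least once across the 6 samples, 2756 (14.0%) were higher and 2740 (13.9%) lower in HCT116 oxpl-R at an adjusted p below 0.05 in edgeR's quasi-likelihood test. Genes that also differed by over 2-fold (|log2FC| > 1) are called DEGs, and 1178 DEGs were higher (5.98%) and 620 lower (3.15%). Samples of the lines did not overlap for 8018 genes (40.7%), so separate samples are not particular to the genes named below. These percentages are the background for each list, but they include genes at very low counts. With a filter on low counts, 5692 of 13057 genes passed in either direction, against 5496 of 19684 without it. Many lists hold few low-count genes, and all 53 tested repair genes had a mean of at least 10 counts. A list share moderately above 14.0% or 13.9% is therefore not by itself particular to that list. List shares were not tested against either background. Values per gene are counts normalized for library size and composition, in the order of replicates 1, 2 and 3, and genes that sort after SETP6 come from a second table that was normalized on its own. Errors are SDs over 3 samples for counts and standard errors for log2FC, which is HCT116 oxpl-R over HCT116. Genes with a mean of at least 10 counts are called expressed, and the median log2FC of the 13031 expressed genes was −0.02. In bulk RNA, fewer cells with a transcript and less of it per cell cannot be told apart.

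**Figure D1:**
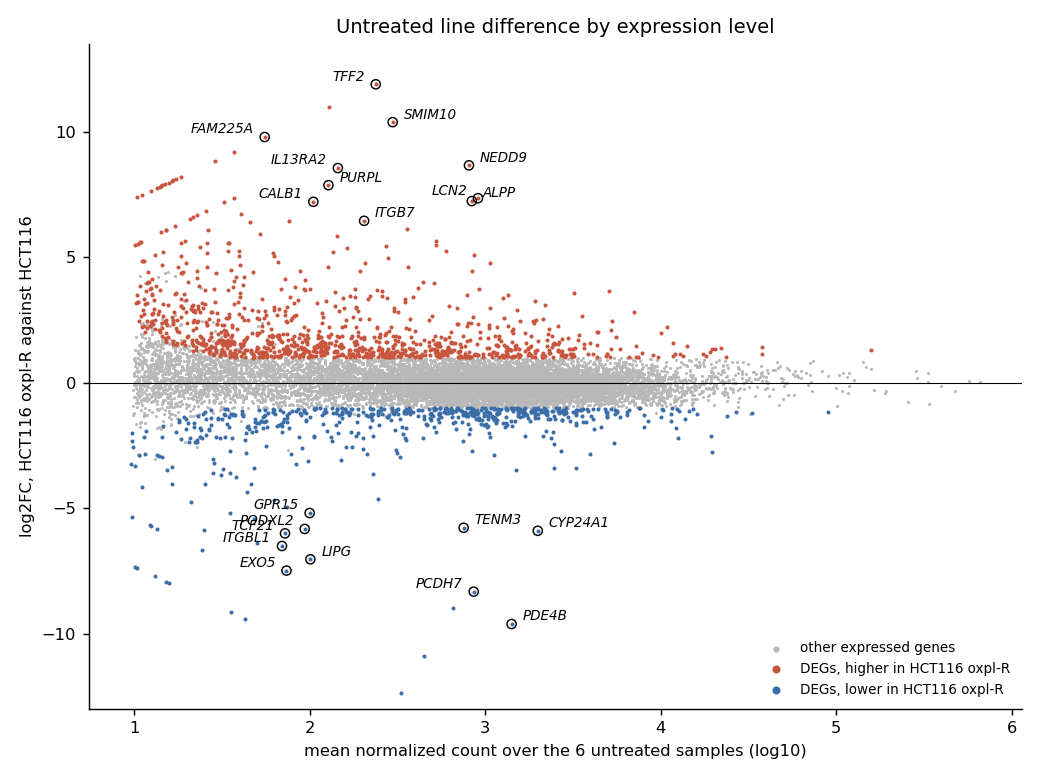
Mean normalized count over the 6 untreated samples (x axis, log10) against log2FC of HCT116 oxpl-R over HCT116 (y axis), with DEGs in color and the 10 largest and 10 smallest log2FC by the naming rule marked. More DEGs lie above 0 than below it, and of the marked genes PDE4B lies lowest, at −9.62, and TFF2 highest, at a fitted value that is no bound because it was at 0 counts in all 3 HCT116 samples.

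The 10 largest increases, among DEGs with separate samples and a mean of at least 100 normalized counts in the higher line, were those of TFF2, SMIM10, FAM225A, NEDD9, IL13RA2, PURPL, LCN2, ALPP, CALB1 and ITGB7. TFF2 (chr21:42346357-42350997 on GRCh38), a secreted trefoil peptide of the stomach, was at 0 in all 3 samples in HCT116 and 400.3, 553 and 473 in HCT116 oxpl-R. With 3 counts per sample as the level that a count of 0 allows, it was at least 164-fold higher in HCT116 oxpl-R. LCN2 (chr9:128149071-128153453), a secreted protein that binds iron-loaded siderophores, was at 5.72, 9.51 and 17.8 in HCT116 and 1658, 1605 and 2158 in HCT116 oxpl-R (log2FC 7.35 ± 0.28, adjusted p = 2.45e-09 by edgeR). Separate samples were required by the rule that picked these genes.

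ALPP (chr2:232378724-232382889), the placental alkaline phosphatase, was at 11.4, 9.51 and 11.8 in HCT116 and 1383, 1633 and 1983 in HCT116 oxpl-R (log2FC 7.24 ± 0.22, adjusted p = 4.21e-10 by edgeR), and reads shared with its near-identical neighbour ALPG make the split between these genes uncertain. ITGB7 (chr12:53191323-53207282), an integrin beta chain known from lymphocytes, was at 3.81, 7.61 and 1.97 in HCT116 and 411, 408 and 392 in HCT116 oxpl-R (log2FC 6.45 ± 0.29, adjusted p = 8.68e-09 by edgeR). CALB1, a calcium buffer, was at 3.81, 0 and 0 in HCT116 and 195, 144 and 286 in HCT116 oxpl-R. Each of these genes was at about 10 or fewer in HCT116, while the naming rule required a mean of at least 100 in the higher line. PURPL (chr5:27217714-27497871), a long noncoding RNA known to be induced by p53, was at 2.86, 0 and 0 in HCT116 and 241, 144 and 378 in HCT116 oxpl-R, a ratio of 265 with a 95% counting interval of 90.2 to 1290.

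The 10 largest decreases were those of PDE4B, PCDH7, EXO5, LIPG, ITGBL1, TCF21, CYP24A1, PODXL2, TENM3 and GPR15. CYP24A1 (chr20:54153446-54173986), the enzyme that inactivates the vitamin D hormone, was at 4018, 4138 and 3599.6 in HCT116 and 67.2, 52.04 and 76.8 in HCT116 oxpl-R (log2FC −5.91 ± 0.16, adjusted p = 2.06e-10 by edgeR). PCDH7 (chr4:30720369-31146805), a protocadherin outside the protocadherin clusters, was at 1969, 1880.1 and 1291 in HCT116 and 4.56, 0.98 and 10.1 in HCT116 oxpl-R (log2FC −8.33 ± 0.36, adjusted p = 6.38e-09 by edgeR). TENM3 (chr4:182143987-182803024), a teneurin of the cell surface, was at 1565, 1493 and 1381 in HCT116 and 11.4, 23.4 and 44.7 in HCT116 oxpl-R (log2FC −5.78 ± 0.32, adjusted p = 3.98e-08 by edgeR). All 3 were strongly expressed in HCT116 and close to the detection limit or low in HCT116 oxpl-R.

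LIPG, a secreted phospholipase, was at 217, 182 and 201 in HCT116 and 4.56, 0 and 0 in HCT116 oxpl-R. TCF21, a transcription factor of mesenchyme, was at 144, 115 and 169 in HCT116 and 1.14, 1.95 and 3.12 in HCT116 oxpl-R. EXO5 (chr1:40508741-40516038), a DNA exonuclease that acts at interstrand crosslinks, was at 184, 143 and 113 in HCT116 and 0, 1.96 and 0 in HCT116 oxpl-R, a ratio of 211 with a 95% counting interval of 58.2 to 1750. All 20 genes of the largest differences kept an adjusted p below 0.05 in edgeR with any 1 sample left out and under every alternative run, with a highest value of 0.00102, for PURPL.

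No more than 3 counts in each sample of a line and at least 30 in each of the other were found for 15 genes detected in HCT116 oxpl-R only and 15 detected in HCT116 only, each 0.0395% of the 37967 genes in the tables. The 8 with the highest counts in HCT116 oxpl-R were SMIM10, TFF2, IL13RA2, PURPL, FAM225A, LINC03102, PRICKLE2 and GLIS3-AS1. PRICKLE2, a planar cell polarity protein, was at 1.91, 0 and 0 in HCT116 and 92.3, 65.8 and 81.9 in HCT116 oxpl-R. In HCT116 they were RPS4Y1, EIF1AY, KDM5D, EXO5, ITGBL1, TCF21, MSRB3-AS1 and TMSB4Y, and 4 of the 15 lie on chromosome Y. All 15 genes of HCT116 oxpl-R had over 3 counts in all 9 treated samples of that line, and 13 of the 15 of HCT116 did so in theirs. The other line stayed at or below 3 counts in all its 9 treated samples for 5 genes of either set.

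The p53 targets had the highest share of members higher in HCT116 oxpl-R of the 24 lists. Of 46 tested members, 28 (60.9%) were higher and 2 (4.35%) lower, against 14.0% and 13.9% of all genes, and the median log2FC of the expressed members was 0.60.

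The promoters of the list were searched for the binding sequence of p53 itself, to show which members carry it next to their start. RefSeq windows on GRCh38.p14, from 250 bases before to 50 after the start, were in the table for 38 genes of the list. The motif was the p53 consensus of 20 bases, made of 2 adjacent decamers with their central C and G kept and at most 3 mismatches, and it is its own reverse complement, so that both strands were covered. It was found in 6 of the 38 windows (15.8%), in 3 of the 19 windows of members higher in HCT116 oxpl-R (15.8%) and in 288 of all 27305 windows (1.05%). A match of letters is no measured binding, and sites in introns or farther upstream lie outside these windows. The match without mismatch, that with 2 mismatches and, of those with 3, that of RPS27L are shown 5′ to 3′ on the strand of the gene. The 20 matched bases are in capitals.
PTCHD4, chr6:48111193-48111222, minus strand, 0 mismatches: atgggAGGCTTGCCCAGACTTGCCCagtga
AEN, chr15:88621301-88621330, plus strand, 2 mismatches: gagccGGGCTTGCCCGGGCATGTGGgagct
RPS27L, chr15:63157522-63157551, minus strand, 3 mismatches: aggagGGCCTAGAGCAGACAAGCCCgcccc
PTCHD4, RPS27L and GDF15, whose match also had 3 mismatches, were higher in HCT116 oxpl-R. AEN, with a closer match than RPS27L, and PMAIP1 and FDXR, with 3 mismatches each, did not pass the test.

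The members with the largest differences were TNFRSF10C, PTCHD4, SPATA18 and GDF15. TNFRSF10C, a decoy receptor for the death ligand TRAIL, was at 9.41, 2.82 and 1.98 in HCT116 and 279, 261 and 308 in HCT116 oxpl-R (log2FC 5.85 ± 0.41, adjusted p = 3.92e-07 by edgeR). PTCHD4, a patched-related membrane protein, was at 9.53, 14.3 and 8.88 in HCT116 and 180.0, 151 and 132 in HCT116 oxpl-R (log2FC 3.81 ± 0.27, adjusted p = 5.32e-07 by edgeR). SPATA18, a protein of mitochondrial quality control, was at 6.59, 0.94 and 3.97 in HCT116 and 52.5, 49.7 and 57.1 in HCT116 oxpl-R (log2FC 3.75 ± 0.63, adjusted p = 7.19e-04 by edgeR). All 3 were at low levels in HCT116 and separate from it in every HCT116 oxpl-R sample. GDF15, a secreted stress cytokine, was high in both lines, at 1921, 1793 and 1455 in HCT116 and 13615, 11076 and 12209.5 in HCT116 oxpl-R (log2FC 2.84 ± 0.14, adjusted p = 1.69e-08 by edgeR).

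Other DEGs of the list are effectors of arrest, death and repair. CDKN1A, the p21 inhibitor of cyclin-dependent kinases, was at 4194, 3883 and 4102 in HCT116 and 15039.6, 16092 and 16957 in HCT116 oxpl-R (log2FC 1.98 ± 0.11, adjusted p = 4.62e-08 by edgeR). PLK2, a stress-induced kinase, was at 989, 1085 and 864 in HCT116 and 6000.4, 6701 and 5797 in HCT116 oxpl-R, and BAX, which permeabilizes the mitochondrial outer membrane, at 1045, 934 and 1161 in HCT116 and 3433, 4121 and 3697 in HCT116 oxpl-R. RPS27L had log2FC 1.57 ± 0.18, PHLDA3, an inhibitor of AKT, 1.26 ± 0.13, the decoy receptor TNFRSF10D 1.25 ± 0.13, TP53INP1 1.24 ± 0.17 and DDB2, the damage sensor of nucleotide excision repair, 1.16 ± 0.11. TNFRSF10C and TNFRSF10D are similar in sequence, so reads may be shared between them. MDM2, the ubiquitin ligase that degrades p53, was higher by under 2-fold (log2FC 0.73 ± 0.11, named after its value was seen).

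The best expressed members that did not pass were AEN, FDXR and PMAIP1, with log2FC of 0.07 ± 0.11, 0.32 ± 0.12 and 0.12 ± 0.18. KITLG, the ligand of the receptor KIT, was the only DEG of the list in the other direction, at 23286, 23146 and 15451 in HCT116 and 2955, 1979 and 8545 in HCT116 oxpl-R (log2FC −2.20 ± 0.40, adjusted p = 0.00115 by edgeR). Its replicate 3 of HCT116 oxpl-R lay nearest to HCT116. Without that sample, 32 members of the list were higher and 3 lower.

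**Figure D2:**
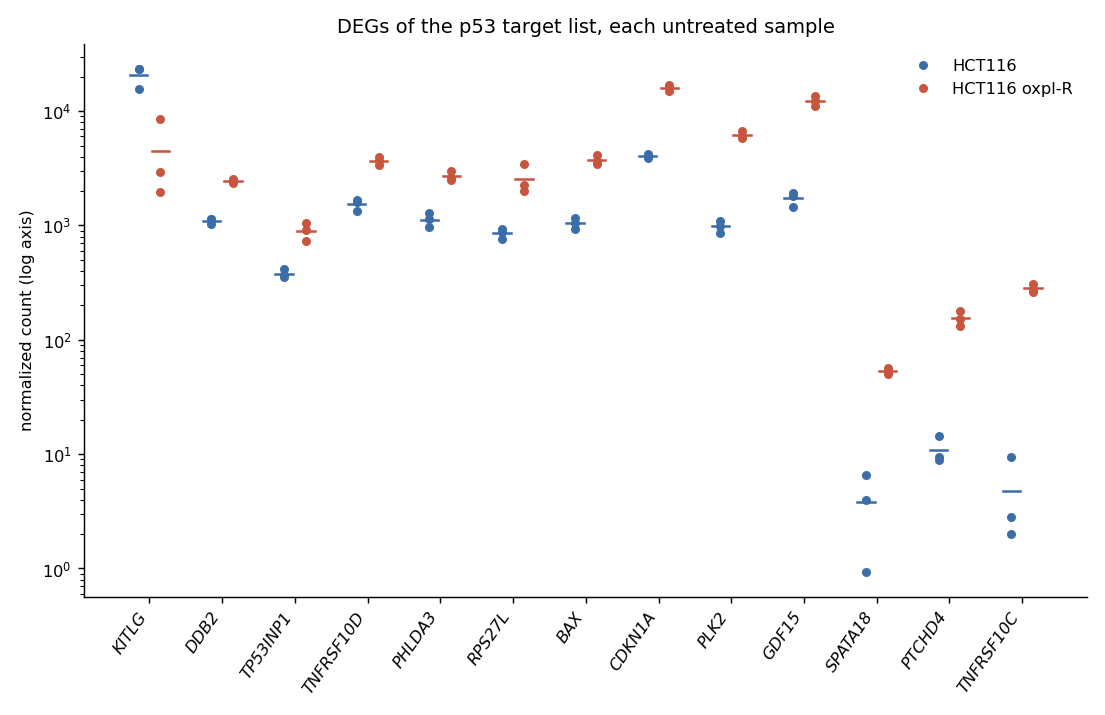
Normalized counts (log axis) of 13 DEGs of the p53 target list in each of the 3 HCT116 and 3 HCT116 oxpl-R untreated samples, with the mean of each line marked. The HCT116 oxpl-R samples lie above the HCT116 samples for 12 genes and below them for KITLG.

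Cell death genes were divided. In the list of BCL2 family members, caspases and death receptors, which shares 5 called members with the p53 targets, 12 of 43 were higher and 11 lower. BCL2L15, a BCL2 relative expressed in the gut, was at 24.8, 25.7 and 9.86 in HCT116 and 957, 1168 and 941 in HCT116 oxpl-R (log2FC 5.65 ± 0.27, adjusted p = 1.44e-08 by edgeR). TNFRSF1B, a receptor for TNF, was at 40.04 ± 14.1 in HCT116 and 101 ± 4.01 in HCT116 oxpl-R (log2FC 1.33 ± 0.33), and the low-level BCL2L14 lost its call with a sample left out. On the lower side were CASP10, an initiator caspase, at 84.8, 78.9 and 62.1 in HCT116 and 13.7, 6.87 and 12.1 in HCT116 oxpl-R (log2FC −2.79 ± 0.34, adjusted p = 6.19e-05 by edgeR), and BMF, a proapoptotic BH3-only protein, with log2FC −1.59 ± 0.25. The apoptosis inhibitors BIRC5 and MCL1 and the caspase CASP2 did not pass, at −0.19 ± 0.12, −0.01 ± 0.14 and −0.28 ± 0.10. BCL2L1, which encodes the antiapoptotic BCL-XL, was higher (log2FC 0.84 ± 0.11, named after its value was seen).

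G1 cyclins and inhibitors of cyclin-dependent kinases held 6 higher and 7 lower members of 30. Besides CDKN1A, the inhibitor CDKN2B was a DEG, at 201, 177 and 173 in HCT116 and 456, 406 and 284 in HCT116 oxpl-R (log2FC 1.05 ± 0.19, adjusted p = 9.46e-04 by edgeR). E2F3, a transcription factor of S phase entry, was lower, at 2386, 2558 and 2553 in HCT116 and 1211, 1278 and 897 in HCT116 oxpl-R (log2FC −1.15 ± 0.14, adjusted p = 4.55e-05 by edgeR). CDK4, CDK2 and E2F1 had log2FC of 0.05 ± 0.13, −0.23 ± 0.10 and 0.16 ± 0.12 and did not pass. Cyclin D1 (CCND1) was higher (log2FC 0.80 ± 0.11, named after its value was seen).

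Platinum enters cells in part through copper routes and leaves them through ABC transporters. Of 41 genes of platinum transport and metallothioneins, 10 were higher and 6 lower. ABCG1, a sterol exporter, was at 40.99, 31.4 and 37.5 in HCT116 and 444, 345 and 421 in HCT116 oxpl-R (log2FC 3.46 ± 0.19, adjusted p = 5.50e-08 by edgeR). ATOX1, a copper chaperone that also binds platinum drugs, was at 613, 549 and 595 in HCT116 and 3053, 2932 and 3940.5 in HCT116 oxpl-R (log2FC 2.50 ± 0.14, adjusted p = 4.65e-08 by edgeR). ABCG2, a multidrug exporter, was at 95.3, 114 and 102 in HCT116 and 330.3, 254 and 610.4 in HCT116 oxpl-R (log2FC 1.94 ± 0.28, adjusted p = 1.79e-04 by edgeR). No HCT116 oxpl-R sample of these genes reached down to the HCT116 range, and samples of the lines did not overlap for 40.7% of all genes. COX17, a copper chaperone of mitochondria, had log2FC 1.34 ± 0.16. ABCC2, the exporter MRP2, was the only DEG in the lower direction, at 5176 ± 250.1 in HCT116 and 2475 ± 238 in HCT116 oxpl-R (log2FC −1.06 ± 0.11). The metallothioneins MT2A and MT1E, whose near-identical copies share reads, and the channel subunit LRRC8A did not pass, at −0.05 ± 0.17, 0.10 ± 0.15 and −0.17 ± 0.11.

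Genes of nucleotide excision and crosslink repair leaned lower. The list members XPA, XPC and UVSSA were not analysed, as their symbols sort after TSC22D3, where the analysed genes end. Of 53 members, 16 were lower and 7 higher, with a median log2FC of −0.27, and the only DEG was DDB2, which is also a p53 target. It was at 1131, 1020.4 and 1137 in HCT116 and 2457, 2563 and 2343 in HCT116 oxpl-R (log2FC 1.16 ± 0.11, adjusted p = 6.40e-06 by edgeR). DDB1 and ERCC3, which recognize or open damaged DNA, did not pass, at −0.32 ± 0.13 and −0.36 ± 0.15. The called members numbered 15 without HCT116 replicate 3, and 9 were higher and 25 lower without HCT116 oxpl-R replicate 3.

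Genes of epithelial junctions leaned lower, mostly by under 2-fold. Of 43 members, 20 were lower (46.5%) and 4 higher (9.3%), with a median log2FC of −0.32. NECTIN3, an adhesion molecule of adherens junctions, was at 4479.7, 4367 and 3666 in HCT116 and 765, 920.1 and 614 in HCT116 oxpl-R (log2FC −2.44 ± 0.15, adjusted p = 1.45e-07 by edgeR). AFDN, the afadin that ties nectins to actin, was at 1482, 1513 and 1526 in HCT116 and 503, 467 and 425 in HCT116 oxpl-R (log2FC −1.70 ± 0.13, adjusted p = 7.12e-07 by edgeR), and CGN, the tight junction protein cingulin, at 978, 899 and 1160.1 in HCT116 and 505, 405 and 467 in HCT116 oxpl-R (log2FC −1.14 ± 0.15, adjusted p = 9.40e-05 by edgeR). These 3 DEGs had no sample of either line within the range of the other. CTNNA1, CTNNB1 and ESRP1 did not pass, at −0.27 ± 0.10, 0.24 ± 0.14 and −0.31 ± 0.12. CDH1, the E-cadherin of epithelial cells, was at 3905 ± 202 and 2938 ± 287 in HCT116 and HCT116 oxpl-R (log2FC −0.41 ± 0.11, named after its value was seen), with an adjusted p of up to 0.0572 in edgeR with a sample left out.

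Genes of intestinal identity leaned the other way. Of 37 members, 14 were higher and 5 lower, and 10 of the higher ones were DEGs. MUC13, a transmembrane mucin, was at 13.3, 13.3 and 16.8 in HCT116 and 439, 369 and 388 in HCT116 oxpl-R (log2FC 4.77 ± 0.21, adjusted p = 6.38e-09 by edgeR). CEACAM1, an adhesion molecule of the gut surface, was at 15.3, 40.9 and 18.7 in HCT116 and 378, 324 and 308 in HCT116 oxpl-R (log2FC 3.74 ± 0.29, adjusted p = 1.11e-06 by edgeR). Both were clear of the HCT116 range in all samples, while MUC5AC and CEACAM5 were at few counts and lost their calls with a sample left out. The epithelial factors EHF, KLF5 and CDX2, the brush border peptidase DPP4, the carbonic anhydrase CA2 and the mucin MUC1 were the remaining DEGs, with log2FC of 2.47 ± 0.19, 1.52 ± 0.12, 1.42 ± 0.12, 1.35 ± 0.17, 1.34 ± 0.12 and 1.24 ± 0.23. Among the lower members was KRT20, a keratin of mature enterocytes, at 34.3 ± 10.7 in HCT116 and 6.56 ± 1.33 in HCT116 oxpl-R (log2FC −2.36 ± 0.48). EPCAM, GATA6 and PDX1 did not pass, at −0.25 ± 0.15, −0.28 ± 0.15 and −0.33 ± 0.19.

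The mesenchymal markers VIM, ZEB1, ZEB2, TWIST1 and TWIST2 were not analysed, as their symbols sort after TSC22D3. Of the 25 other mesenchymal genes on the list, 10 were higher and 2 lower. The 4 with the largest increases, CDH11, NNMT, MMP2 and ACTA2, were at low levels. CDH11, a cadherin of mesenchymal cells, was at 0.95, 0 and 0 in HCT116 and 2.28, 58.9 and 23.2 in HCT116 oxpl-R. MMP2, a gelatinase, was at 2.86, 3.80 and 1.97 in HCT116 and 10.3, 62.8 and 6.06 in HCT116 oxpl-R, and NNMT at 0 in all 3 samples in HCT116 and 5.70, 2.95 and 4.04 in HCT116 oxpl-R, and these 2 calls were lost with a sample left out. ACTA2, smooth muscle actin, was at 38.1, 41.8 and 49.3 in HCT116 and 179, 118 and 139 in HCT116 oxpl-R (log2FC 1.75 ± 0.23, adjusted p = 1.01e-04 by edgeR). CD44, AXL and CCN1 did not pass, at −0.01 ± 0.11, −0.29 ± 0.13 and 0.06 ± 0.15. CDH11 and MMP2 were highest in HCT116 oxpl-R replicate 2, and without that sample 9 members of the list passed, against 12 with all samples. The same sample was highest for fibroblast collagens, with COL1A2 at 16, 243 and 11 counts and COL3A1 at 10, 36 and 8 in the 3 HCT116 oxpl-R samples, against 51, 0 and 3 and 18, 16 and 10 in HCT116. The 7 fibroblast markers summed to 618 to 654 counts in HCT116 and 433 to 903 in HCT116 oxpl-R, with DCN, LUM and PDGFRA at 2 counts or fewer in every sample, and their part in these differences was not tested.

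Keratins form the intermediate filaments of epithelial cells, and simple epithelia are marked by KRT8 and KRT18. Of 27 tested keratins, 11 were higher, 10 of them DEGs, and 2 lower. KRT4, a keratin of stratified epithelia, was at 0, 0 and 1.97 in HCT116 and 25.1, 48.1 and 41.4 in HCT116 oxpl-R (log2FC 5.64 ± 0.81, adjusted p = 1.97e-04 by edgeR). KRT16, a keratin of stressed epidermis, was at 12.4, 15.2 and 19.7 in HCT116 and 164, 179 and 127 in HCT116 oxpl-R (log2FC 3.30 ± 0.26, adjusted p = 1.24e-06 by edgeR). Both were low in every HCT116 sample, and KRT3 and KRT84, at 0 in HCT116, had few counts in HCT116 oxpl-R and lost their calls with a sample left out. KRT23 was lower, at 563, 650.5 and 534 in HCT116 and 96.8, 51.1 and 75.8 in HCT116 oxpl-R (log2FC −2.97 ± 0.22, adjusted p = 5.94e-07 by edgeR). KRT8, KRT18 and KRT10 did not pass, at 0.24 ± 0.12, 0.40 ± 0.14 and 0.02 ± 0.14, and KRT8 was the most abundant of them, at 105984 ± 8853 and 125344 ± 7567 in HCT116 and HCT116 oxpl-R.

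HOX genes encode transcription factors of position along the body axis and lie in the clusters HOXA, HOXB, HOXC and HOXD. Of 37 tested HOX genes, 13 (35.1%) were higher and 2 lower, and 8 of the 13 higher ones were of HOXB. The median log2FC of expressed members was 2.53 in HOXB, 0.51 in HOXC, 0.29 in HOXA and 0.22 in HOXD. HOXB6 was at 183, 214 and 266 in HCT116 and 2483, 2885 and 2028 in HCT116 oxpl-R (log2FC 3.48 ± 0.18, adjusted p = 2.36e-08 by edgeR). HOXB8 was at 219, 221 and 228 in HCT116 and 2598, 2306 and 2020.3 in HCT116 oxpl-R (log2FC 3.37 ± 0.14, adjusted p = 4.40e-09 by edgeR). HOXB5, with 133 ± 10.4 in HCT116 and 1110.4 ± 109 in HCT116 oxpl-R, had log2FC 3.06 ± 0.15.

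HOXB2, HOXB3, HOXB4, HOXB7 and HOXB9 had log2FC of 2.79 ± 0.55, 2.50 ± 0.17, 2.53 ± 0.19, 1.09 ± 0.12 and 1.87 ± 0.13, and overlapping transcripts of HOXB3 and HOXB4 or HOXB6 and HOXB7 may share reads. HOXB13, the outermost member, was at 668, 747 and 651 in HCT116 and 664, 766 and 708 in HCT116 oxpl-R and did not pass (log2FC 0.05 ± 0.13). In the other clusters HOXC11 was at 3.86 ± 0.96 in HCT116 and 33.2 ± 7.47 in HCT116 oxpl-R (log2FC 3.06 ± 0.52), while HOXC12, at 0 in HCT116, and the lower HOXC4 (log2FC −1.84 ± 0.52) lost their calls with a sample left out. HOXA9 and HOXA10 did not pass, at 0.22 ± 0.10 and 0.29 ± 0.12.

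The surroundings of HOXB were examined after these values were seen. HOXB1, which is also on the list, had no counts in the 6 samples. HOXB2 to HOXB13 span chr17:48540894-48728750 on GRCh38, and 29 expressed genes lie within 1 Mb outside. Of these, 5 were higher and 5 lower, with a median log2FC of −0.06. SKAP1 (chr17:48133442-48430275), an adaptor protein of T cells on the HOXB2 side, was at 83.8, 46.04 and 40.7 in HCT116 and 775, 698 and 852 in HCT116 oxpl-R (log2FC 3.77 ± 0.26, adjusted p = 3.58e-07 by edgeR). SNX11 beyond it and CALCOCO2 on the HOXB13 side did not pass, at 0.13 ± 0.13 and −0.10 ± 0.17. Farther out, PHOSPHO1 was higher (log2FC 1.54 ± 0.18) and PRR15L lower, at 47.7, 45.6 and 53.3 in HCT116 and 2.28, 0 and 0 in HCT116 oxpl-R.

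**Figure D3:**
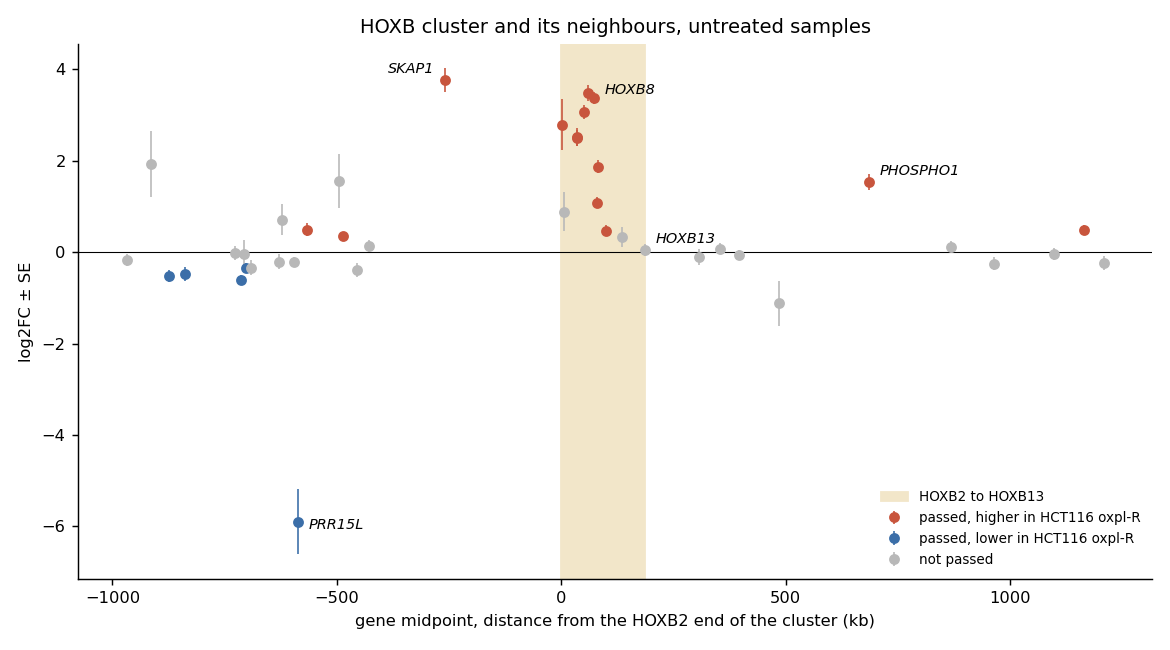
Log2FC of HCT116 oxpl-R over HCT116 (y axis) of expressed genes in and within 1 Mb of the HOXB cluster, by distance of the gene's midpoint from the HOXB2 end (x axis, kb), with standard errors as bars and the span from HOXB2 to HOXB13 shaded. The 8 HOX genes from HOXB2 to HOXB9 stand above 1, with HOXB-AS1 in the same stretch at 0.89 and HOXB13 at 0.05, and of the genes outside, with a median of −0.06, SKAP1 and PHOSPHO1 passed above 1 while KPNB1-DT and NFE2L1-DT did not pass at 1.93 and 1.56.

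Genes of WNT signalling, the pathway that drives most colorectal tumors, stood on both sides. The WNT ligands of the list, WIF1 and ZNRF3 sort after TSC22D3 and were not analysed. Of 32 members tested, 6 were higher and 7 lower. AXIN2, a feedback target of the pathway, was at 761, 736 and 853 in HCT116 and 3096, 3059 and 2408 in HCT116 oxpl-R (log2FC 1.87 ± 0.13, adjusted p = 4.38e-07 by edgeR). The target SP5 had log2FC 1.65 ± 0.30, and the secreted inhibitor DKK1 1.35 ± 0.17. On the lower side, NOTUM, a secreted WNT deacylase, was at 758, 650.5 and 759 in HCT116 and 175, 153 and 140.5 in HCT116 oxpl-R (log2FC −2.21 ± 0.16, adjusted p = 5.12e-07 by edgeR). The transcription factors TCF7L2 and TCF7L1 and the receptor LGR4 had log2FC of −1.56 ± 0.12, −1.32 ± 0.19 and −1.20 ± 0.16, so that targets and feedback genes stood on both sides. LRP5, EPHB2 and TCF7 did not pass, at −0.18 ± 0.10, −0.18 ± 0.11 and 0.28 ± 0.13. MYC, a target of the pathway, was lower (log2FC −0.57 ± 0.11, named after its value was seen).

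In the TGF-beta and BMP pathway, 14 of 50 members were higher and 10 lower. Among ligands and their antagonists, BMP2 was at 0 in all 3 samples in HCT116 and 52.4, 57.9 and 62.7 in HCT116 oxpl-R and NOG, which binds BMPs, at 5.72, 6.66 and 7.89 in HCT116 and 74.04, 71.7 and 73.8 in HCT116 oxpl-R (log2FC 3.41 ± 0.34, adjusted p = 9.27e-06 by edgeR). GDF15 is described with the p53 targets. BMP6 was lower, at 174, 238 and 234 in HCT116 and 115, 93.3 and 60.6 in HCT116 oxpl-R (log2FC −1.27 ± 0.23, adjusted p = 0.00118 by edgeR). LEFTY1, at low counts, lost its call with a sample left out. The target genes ID1 and ID2 and the ligand BMP4 did not pass, at −0.04 ± 0.11, −0.31 ± 0.12 and 0.10 ± 0.10.

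The EGF ligand and MAPK feedback list held 14 higher and 14 lower members of 49. Ligands that were low in HCT116 were higher in HCT116 oxpl-R: NRG1 was at 0, 9.51 and 0.99 in HCT116 and 95.7, 174 and 93.99 in HCT116 oxpl-R (log2FC 5.06 ± 0.62, adjusted p = 6.03e-05 by edgeR). EPGN was at 3.81, 3.80 and 0.99 in HCT116 and 68.3, 46.2 and 89.9 in HCT116 oxpl-R and NRG2 at 17.2, 19.97 and 32.6 in HCT116 and 108, 128 and 140.5 in HCT116 oxpl-R. The ligand AREG, abundant in both lines, was lower, at 17272, 16415 and 14864 in HCT116 and 7117, 7161 and 6038 in HCT116 oxpl-R (log2FC −1.26 ± 0.12, adjusted p = 5.32e-06 by edgeR). Feedback genes were divided, since the phosphatase DUSP10 had log2FC 1.89 ± 0.16, and SPRY4, the phosphatase DUSP2 and the EGFR inhibitor ERRFI1 had −1.46 ± 0.12, −1.22 ± 0.16 and −1.07 ± 0.16. PHLDA1, MET and DUSP6 did not pass, at −0.10 ± 0.12, 0.21 ± 0.11 and 0.23 ± 0.13.

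AP-1 members and immediate early genes, which respond within minutes to growth factors, had 7 higher and 10 lower members of 27, and all 3 DEGs were lower. NR4A2, an orphan nuclear receptor, was at 573, 514 and 516 in HCT116 and 87.7, 86.4 and 72.8 in HCT116 oxpl-R (log2FC −2.70 ± 0.16, adjusted p = 1.09e-07 by edgeR). EGR1 was at 3726, 3306 and 3547 in HCT116 and 1035, 906 and 833 in HCT116 oxpl-R (log2FC −1.93 ± 0.12, adjusted p = 1.40e-07 by edgeR), and KLF2 had log2FC −1.04 ± 0.12. JUND, KLF6 and MAFK did not pass, at 0.11 ± 0.12, 0.33 ± 0.15 and −0.26 ± 0.12.

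Of 55 genes of cAMP signalling, 15 were lower and 7 higher. Besides the phosphodiesterase PDE4B, the catalytic kinase subunit PRKACB was lower, at 6638, 6602 and 4829.7 in HCT116 and 678, 487 and 549.8 in HCT116 oxpl-R (log2FC −3.40 ± 0.16, adjusted p = 1.73e-08 by edgeR). AKAP12, a scaffold of that kinase, was at 32203, 35718 and 34955 in HCT116 and 5669, 5594 and 3805 in HCT116 oxpl-R (log2FC −2.77 ± 0.16, adjusted p = 5.85e-08 by edgeR), and PDE7B, at few counts, lost its call with a sample left out. The prostaglandin receptor PTGER2 was higher, at 28.6, 32.3 and 19.7 in HCT116 and 99.1, 103 and 60.6 in HCT116 oxpl-R (log2FC 1.70 ± 0.30, adjusted p = 9.58e-04 by edgeR). The adenylyl cyclase ADCY1, at 0 in HCT116, had 1.14, 7.86 and 14.1 in HCT116 oxpl-R and lost its call with a sample left out. GNAS, PRKAR1A and PRKACA, the core of the pathway, did not pass, at −0.28 ± 0.11, 0.30 ± 0.15 and 0.12 ± 0.11.

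Guidance receptors and their ligands, which steer axons and also act in epithelia, had 18 higher and 14 lower members of 62. The semaphorin receptor NRP2 was at 48.6, 49.5 and 49.3 in HCT116 and 1851, 1651 and 1504 in HCT116 oxpl-R (log2FC 5.08 ± 0.16, adjusted p = 5.21e-10 by edgeR), and its relative NRP1 at 29.6, 18.1 and 21.7 in HCT116 and 219, 246 and 206 in HCT116 oxpl-R (log2FC 3.27 ± 0.23, adjusted p = 3.84e-07 by edgeR). ROBO4, at 0 in HCT116, was at 19.4, 10.8 and 20.2 in HCT116 oxpl-R, and PLXNA4, also at 0, lost its call with a sample left out. Both neuropilins were thus higher, while secreted semaphorins that bind them were lower: SEMA3C was at 618, 637 and 476 in HCT116 and 93.4, 71.7 and 207 in HCT116 oxpl-R (log2FC −2.21 ± 0.31, adjusted p = 1.54e-04 by edgeR) and SEMA3A at 578, 673 and 388 in HCT116 and 86.6, 84.4 and 228 in HCT116 oxpl-R (log2FC −2.03 ± 0.34, adjusted p = 5.54e-04 by edgeR). Replicate 3 of HCT116 oxpl-R was the nearest to HCT116 for both semaphorins. DRAXIN, a netrin and WNT antagonist, had log2FC −2.31 ± 0.19, and SEMA4A, at few counts, lost its call with a sample left out. PLXNB2, SEMA6B and EPHB4 did not pass, at 0.09 ± 0.10, −0.09 ± 0.12 and −0.21 ± 0.10.

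Interferon-stimulated and MHC class I genes were more often lower than higher. Of 54 members, 19 (35.2%) were lower and 4 (7.41%) higher, with a median log2FC of −0.49. BST2, the tetherin that holds viruses at the cell surface, was at 62.9, 71.3 and 78.9 in HCT116 and 1.14, 6.87 and 7.07 in HCT116 oxpl-R (log2FC −3.76 ± 0.45, adjusted p = 4.99e-05 by edgeR). OASL, a relative of the RNA sensors of the OAS family, was at 413, 474 and 396 in HCT116 and 171, 132 and 159.7 in HCT116 oxpl-R (log2FC −1.47 ± 0.16, adjusted p = 2.64e-05 by edgeR), and IRF2, an interferon regulatory factor, at 355, 307 and 342 in HCT116 and 129, 155 and 77.8 in HCT116 oxpl-R (log2FC −1.47 ± 0.22, adjusted p = 2.74e-04 by edgeR). For these genes every HCT116 oxpl-R sample lay below every HCT116 sample. OAS1 lost its call with a sample left out, as did GBP2 on the higher side. IFI27 was higher, at 59.5 ± 9.75 in HCT116 and 139.5 ± 25.9 in HCT116 oxpl-R (log2FC 1.23 ± 0.22). HLA-B, HLA-E and IFITM2 did not pass, at 0.07 ± 0.11, 0.06 ± 0.10 and 0.26 ± 0.10, and B2M, the light chain of MHC class I, was higher (log2FC 0.90 ± 0.15, named after its value was seen). Immune markers summed to 86 to 155 counts in HCT116 and 28 to 74 in HCT116 oxpl-R, and their part in these differences was not tested. Nearly all of these counts were of CD68, at 85, 90 and 153 in HCT116 and 38, 26 and 68 in HCT116 oxpl-R. PTPRC, CD3E and MS4A1 were at 2 counts or fewer in every sample.

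Among cytokines and NF-kappaB genes, 10 of 55 were higher and 8 lower. CSF2, the cytokine GM-CSF, was at 3.81, 8.56 and 2.96 in HCT116 and 63.8, 80.5 and 89.9 in HCT116 oxpl-R (log2FC 3.90 ± 0.41, adjusted p = 1.61e-05 by edgeR). ICAM1, an adhesion molecule for leukocytes, was at 80.1, 57.1 and 61.2 in HCT116 and 753, 607 and 770.1 in HCT116 oxpl-R (log2FC 3.42 ± 0.19, adjusted p = 4.67e-08 by edgeR). The receptor chain IL20RA had log2FC 1.41 ± 0.24. NFKB1, which encodes the p50 subunit, was lower, at 1868, 1981 and 2124 in HCT116 and 695, 748 and 498 in HCT116 oxpl-R (log2FC −1.62 ± 0.15, adjusted p = 5.96e-06 by edgeR), so that a subunit and ICAM1, which NF-kappaB is known to induce, stood on opposite sides. RELA, IFNGR2 and NFKB2 did not pass, at −0.13 ± 0.11, 0.26 ± 0.10 and −0.25 ± 0.11.

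Nucleolar genes of ribosome biogenesis leaned lower. Of 62 members, 26 (41.9%) were lower and 2 (3.23%) higher, with a median log2FC of −0.33. NCL, the nucleolin, was at 44982, 45369 and 49193 in HCT116 and 20945, 22356 and 17051 in HCT116 oxpl-R (log2FC −1.21 ± 0.13, adjusted p = 1.56e-05 by edgeR). POLR1A, the largest subunit of RNA polymerase I, was at 3691, 3988 and 4282 in HCT116 and 1822, 1907 and 1636 in HCT116 oxpl-R (log2FC −1.16 ± 0.11, adjusted p = 7.60e-06 by edgeR). DDX18 and NOC3L had larger log2FC, −1.49 ± 0.44 and −1.37 ± 0.46, with replicate 3 of HCT116 oxpl-R nearest to HCT116, and lost their calls with a sample left out. NPM1, FBL and PES1, core nucleolar proteins, did not pass, at 0.01 ± 0.15, −0.06 ± 0.11 and −0.22 ± 0.11. Without HCT116 oxpl-R replicate 3, 32 members were lower and 2 higher.

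Enzymes of cholesterol and fatty acid synthesis were mostly lower, with 15 lower and 4 higher of 36. ACAT2, a thiolase at the entry of the pathway, was at 1814, 1701 and 1414 in HCT116 and 694, 603 and 808 in HCT116 oxpl-R (log2FC −1.23 ± 0.14, adjusted p = 4.26e-05 by edgeR), and ACACA, the acetyl-CoA carboxylase, at 5345, 5511 and 5761 in HCT116 and 2776, 2825 and 2323 in HCT116 oxpl-R (log2FC −1.07 ± 0.11, adjusted p = 1.54e-05 by edgeR). ELOVL6 was the member with the most negative log2FC, −1.59 ± 0.22, but did not pass in the second table (adjusted p = 0.234, edgeR). SCD, the stearoyl-CoA desaturase, was lower (log2FC −0.91 ± 0.17, named after its value was seen). SREBF2, FDPS and FDFT1 did not pass, at −0.34 ± 0.12, 0.09 ± 0.11 and −0.35 ± 0.18.

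Chaperones and stress response genes had 9 higher and 12 lower members of 48. On the lower side were chaperones: HSPH1 was at 8164, 8822 and 8385 in HCT116 and 3169.9, 3535 and 3152 in HCT116 oxpl-R (log2FC −1.36 ± 0.11, adjusted p = 1.01e-06 by edgeR) and HSP90AB1, a cytosolic HSP90, at 120124, 122797 and 131650.2 in HCT116 and 50908, 57906 and 55851 in HCT116 oxpl-R (log2FC −1.19 ± 0.12, adjusted p = 1.00e-05 by edgeR). CHAC1, an enzyme that degrades glutathione, and PDIA6, a disulfide isomerase, had log2FC of −1.16 ± 0.21 and −1.09 ± 0.11. On the higher side were the cystine transporter SLC7A11, the serine synthesis enzyme PHGDH and the asparagine synthetase ASNS, with log2FC of 1.49 ± 0.24, 1.16 ± 0.10 and 1.02 ± 0.18. HSP90AA1 did not pass, and replicate 3 of HCT116 oxpl-R lay within the HCT116 range, at 49646, 51346 and 35275 in HCT116 and 7136, 7337 and 42965 in HCT116 oxpl-R. HSPA8 and CALR did not pass either, at −0.12 ± 0.25 and −0.00 ± 0.11.

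Hypoxia and glycolysis genes had 6 higher and 7 lower members of 42, close to the background of all genes tested. In this list, the share in each direction was below that of genes kept by the filter on low counts. Its DEGs were CA12, a carbonic anhydrase of the cell surface, at 306, 324 and 258 in HCT116 and 129.8, 173 and 139 in HCT116 oxpl-R (log2FC −1.01 ± 0.17, adjusted p = 7.89e-04 by edgeR), and the glucose transporter SLC2A3, which lost its call with a sample left out. ENO1, PKM and LDHA did not pass, at 0.10 ± 0.12, 0.04 ± 0.12 and 0.17 ± 0.13. The called members numbered 8 without HCT116 replicate 1, 6 without HCT116 replicate 3, and leaving out HCT116 oxpl-R replicate 3 gave 20.

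Clustered protocadherins and cancer-testis antigens showed few calls, but few of their members were expressed. A mean of at least 10 counts was reached by 5 of 43 tested protocadherins and 8 of 40 tested cancer-testis antigens, and all others were below it. Of 43 protocadherins, 1 was higher, PCDHGC5, and its call was lost with a sample left out. PCDHAC2, PCDHGA10 and PCDHAC1 did not pass, at 0.28 ± 0.16, −0.33 ± 0.16 and −0.38 ± 0.21. Of 40 cancer-testis antigens, 3 were higher, the low-level CT45A1 among them, which lost its call with a sample left out. MAGEA3, MAGEB2 and MAGEA2, whose near copies share reads, did not pass, at 0.03 ± 0.11, 0.28 ± 0.11 and 0.26 ± 0.11. The called members of the protocadherins numbered 0 without HCT116 replicate 1 or 3, 3 without HCT116 oxpl-R replicate 1 and 2 without its replicate 2 or 3, and those of the cancer-testis antigens 1 without HCT116 replicate 1 or 2 and 0 without its replicate 3.

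The same line difference was estimated in the other conditions, each with its own 3 samples per line, in a fit of all 24 samples. After oxaliplatin, 13.7% of 22833 tested genes were higher and 12.3% lower in HCT116 oxpl-R, against 6.76% and 7.52% with E1A and 10.3% and 9.08% with both. Of the 1798 untreated DEGs, 1684 (93.7%) had the same sign after oxaliplatin and 1261 (70.1%) passed in that direction, while 3 passed in the opposite one. With E1A these numbers were 1778 (98.9%), 1319 (73.4%) and 1, and with both they were 1712 (95.2%), 1204 (67.0%) and 2. The share with the same sign over all tested genes was not counted, so same-sign shares cannot be called particular to the DEGs. DEGs in both the untreated and the oxaliplatin comparison numbered 1114, which is 62.0% of the untreated and 32.5% of the 3429 oxaliplatin DEGs.

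A test of the difference between the line differences passed for 684 genes (3.0%) between untreated and oxaliplatin, 2 (0.00876%) between untreated and E1A and 43 (0.188%) between untreated and both. Of the untreated DEGs, 89 passed this test for oxaliplatin, and the line difference was smaller after the drug for 61 of them. DEGs were picked for a large untreated difference, which favours a smaller one in any other condition. The 61 are therefore no measure of what the drug does to the line difference. ALPP had log2FC 4.83 ± 0.38 after oxaliplatin, a change of −2.40 (adjusted p of the interaction = 0.00931, edgeR). For MDM2 the line difference was larger after the drug, 2.34 ± 0.21, a change of 1.62 (adjusted p of the interaction = 0.00111, edgeR). KRT7, KRT16 and KRT80 had line differences of −0.15 ± 0.22, 1.15 ± 0.34 and −0.07 ± 0.21 after oxaliplatin, against 1.14 ± 0.15, 3.30 ± 0.26 and 2.36 ± 0.17 untreated.

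By list, the median line difference of expressed p53 targets was 0.60 untreated, 0.52 with E1A, 1.07 after oxaliplatin and 0.90 with both. That of the keratins was 1.19, 0.45, 0.01 and −0.20 in the same order, and that of HOXB 2.52, 1.97, 1.96 and 1.32. The interferon list stayed between −0.49 and −0.61 in all 4 conditions. Medians over all expressed genes were −0.02, −0.04, 0.08 and 0.04 in that order. Differences between these list medians were not tested.

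**Figure D4:**
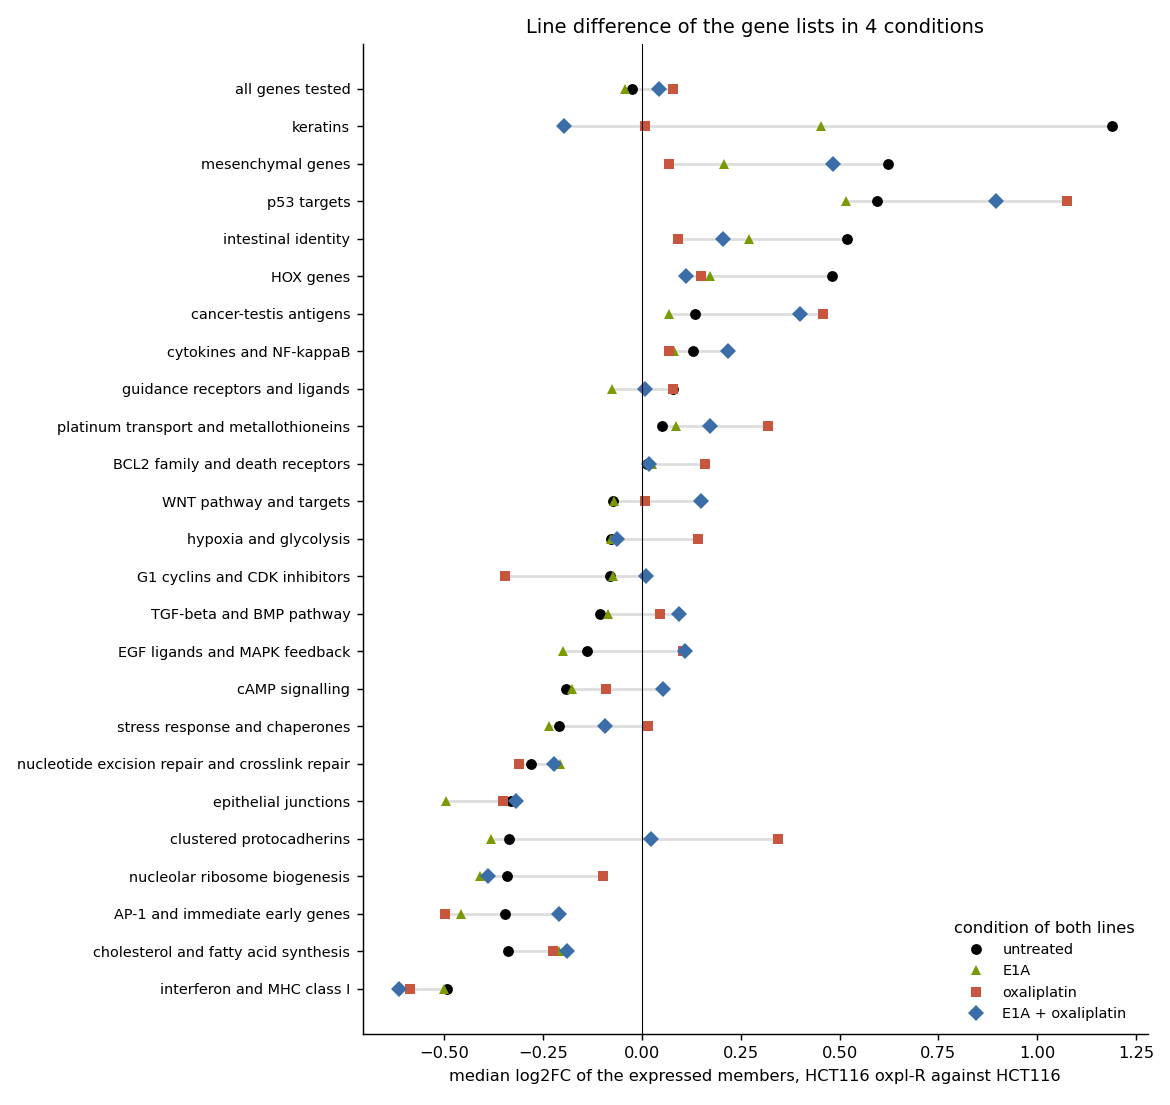
Median log2FC of HCT116 oxpl-R over HCT116 (x axis) of the expressed members of each gene list (y axis) in untreated, E1A, oxaliplatin and combined samples, from a fit of all 24 samples. The keratins go from 1.19 untreated to 0.01 after oxaliplatin, the p53 targets from 0.60 to 1.07, and the interferon list stays below 0 in all 4 conditions.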

How the data were processed

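RNA of 2 HCT116 lines was sequenced in 24 samples, of which the 6 untreated ones are compared here. Per the study's methods, the authors trimmed reads with Trimmomatic, quantified them with Salmon 1.6.0 on GRCh38 and GENCODE release 47 with sequence and GC bias corrections, and summarized genes with tximport. The deposited count table holds estimated counts of 33113 genes, cut within a symbol after SETP6. A second deposited table, of 37967 genes, is named TPM, but its totals of 28004261 to 34855905 and its values are those of length-scaled estimated counts, and it was read so. The planned test for TPM was therefore replaced by the count test, and the 4854 genes after SETP6 come from it. Genes whose symbols sort after TSC22D3 are not analysed here. Several lists lack members for this reason, such as XPC and ZMAT3 among the p53 targets and VEGFA and VHL in the hypoxia list. Whether strand was used is not given in the sources used here, so overlapping and antisense genes cannot be told apart.

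Estimated counts were rounded. Genes counted at least once across the 6 samples were tested in each table with edgeR 4.0.16 (R 4.3.3), with TMM normalization, a quasi-likelihood fit on the line and Benjamini-Hochberg adjustment over all genes of the table. SEs are |log2FC| over the square root of F. On simulated data for this comparison, 86% of 100 genes changed by log2FC 1 and 100% of 100 changed by log2FC 2 were recovered, with 2 false calls in 16515 genes. The simulation gave every gene the same dispersion and changed only genes with a mean of at least 10 counts. It changed a far smaller share of genes than was called here, so these rates need not hold for the data. The line differences in other conditions come from a fit of all 24 samples. Counting intervals are exact at 95% and, like the floor of 3 counts, cover counting error only.

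Named genes were the 10 largest and 10 smallest log2FC among DEGs with separate samples and a mean of at least 100 in the higher line, without chromosome Y. In each list, up to 4 DEGs per direction and the 3 best expressed members that did not pass were named, and of genes in a single line the 8 highest. Some genes that these rules pick are not reported here. Members and lists were chosen with earlier results of these data known. Positions are from GENCODE 44 on GRCh38, joined by symbol, and promoters from RefSeq GRCh38.p14. Alternatives were another normalization, DESeq2 1.42.0, limma 3.58.1 on log2(value + 1) of the second table, a count filter, the second table for all genes, a replicate block, all 24 samples, other thresholds and each sample left out.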

Additional observations from a re-analysis of the deposited data

Results flagged for a closer look

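The line difference was not the same in every condition, by edgeR's interaction test in the fit of all 24 samples at an adjusted p below 0.05. It differed between untreated and oxaliplatin for 684 genes, between untreated and E1A for 2 genes and between untreated and both for 43 genes. Values below are the change in log2FC of HCT116 oxpl-R over HCT116 from untreated to the treated condition, so that a negative value is a lower log2FC under treatment. No cause was tested.

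After oxaliplatin, the keratins KRT80, KRT16 and KRT7 had changes of −2.41, −2.14 and −1.28. FAM225A had a fitted change of −5.99, but it was at 0 counts in all 3 untreated HCT116 samples, so that its size depends on the prior count and was not ranked with the others. The cell cycle genes E2F1 and BIRC5 had −2.6 and −2.15. ALPP had −2.4, the prostaglandin receptor PTGER2 −2.31, the WNT target SP5 −2.22 and the BMP antagonist NOG −1.64. PHGDH had −1.28, DUSP2 −1.1, FSTL3 −0.92 and DDB2 −0.9. The changes were positive for MDM2 at 1.62, PCDHGA10 at 1.21, TNFRSF10D at 1.19, EGR1 at 1.06, MAGEB2 at 0.94, AREG at 0.92 and PDIA6 at 0.78.

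With E1A alone, NRP2 had a change of −2.24. With E1A and oxaliplatin, the change was −2.85 for KRT80, −2.62 for ALPP, −1.87 for NRP2, −1.62 for KRT7, −1.29 for HOXB6 and −1.27 for BIRC5. It was positive for EGR1 at 1.8, DRAXIN at 1.5 and MDM2 at 1.31.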

How the results depend on the processing

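Under the alternatives, 341 counts stayed within 1.5 times the value reported and 57 did not. The median log2FC of expressed genes was −0.131 in limma on log2(value + 1) of the second table, against −0.016, and 36.1% of its calls were higher, against 50.1%. That fit called 1563 genes higher, and the fit of all 24 samples called 1643 higher and 1578 lower. With 1 sample left out, 4095 to 6742 genes were called, the most without HCT116 oxpl-R replicate 3.

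The threshold of |log2FC| > 1 left 17 called members in guidance, 14 in p53 targets, 12 in intestinal identity, 11 each in EGF/MAPK and interferon, 9 each in TGF-beta/BMP and cAMP, 8 each in stress and ribosome biogenesis, 7 in WNT, 6 each in BCL2, cytokines and platinum transport, 5 in cholesterol, 3 each in junctions, AP-1 and G1, 2 in hypoxia and 1 each in repair and cancer-testis. The fit of all 24 samples left 16 in ribosome biogenesis, 13 each in junctions, BCL2 and cAMP, 12 in repair, 11 in stress, 9 in platinum transport, 6 in hypoxia, 1 in cancer-testis and 0 in protocadherins. With samples left out, called members ranged from 15 to 34 in repair, 6 to 20 in hypoxia, 0 to 3 in protocadherins and 0 to 3 in cancer-testis antigens. Protocadherins had 0 called with the count filter and with the replicate block, 3 in the second table and 2 in limma, and cancer-testis antigens 1 with the block.

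Medians changed sign in WNT (−0.141 to 0.053 with samples left out, above 0 as 0.053 without HCT116 replicate 2, 0.15 in the second table, 0.017 in limma), EGF/MAPK (0.03 in the second table), platinum transport (−0.033 to 0.158 with samples left out, below 0 as −0.017 and −0.033 without HCT116 replicates 2 and 3, −0.014 without HCT116 oxpl-R replicate 2, −0.088 in limma), guidance (−0.091 in limma) and protocadherins (−0.294 to 0.165 with samples left out, above 0 as 0.165 without HCT116 replicate 1, 0.105 without HCT116 oxpl-R replicate 1). The cause was not tested.

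With at least 100 counts instead of 30, 4 genes were detected in HCT116 oxpl-R only and 6 in HCT116 only. With up to 10 in the low line and at least 100 in the other, 9 were detected in HCT116 oxpl-R only. The count filter gave 1208, 1 and 110 interactions for oxaliplatin, E1A and both, and the block gave 71 for both.

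Samples with the same replicate number did not deviate together (correlations of −0.0514, −0.0802 and −0.192 over 10934 genes). Deviations were taken from the mean of each line, which ties these correlations to each other. They therefore cannot exclude that samples with the same number were prepared together. With the replicate block, 4287 genes were called in place of 5496. No sample correlated best with its own number.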
